A study of Rattus norvegicus with 9 samples.

Results

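The genes described here are 35 rat genes of glycolysis and of the response to low oxygen, out of 36856 genes with transcripts in the deposited tables. They were listed by name and function, with no threshold on their values: 15 glycolytic enzymes, 5 genes of lactate and glucose handling (Ldha, Ldhb, Slc2a1, Slc16a1 and Slc16a3), 3 regulators of glycolytic flux (Pfkfb3, Pfkfb4 and Pdk1), 4 genes of the oxygen sensing system (Hif1a, Epas1, Egln1 and Egln3) and 8 other targets of the hypoxia-inducible factors. All 35 were found in the tables by their symbol, and 31 passed the filter on low counts and were tested.

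Glycolysis splits glucose into pyruvate and yields ATP without oxygen, and lactate dehydrogenase turns the pyruvate into lactate when it is not burned in mitochondria. The hypoxia-inducible factors (HIF) are transcription factors whose alpha subunits are hydroxylated by prolyl hydroxylases, and then destroyed, while oxygen is plentiful. When oxygen falls, the alpha subunits persist and raise transcription of most glycolytic enzymes, of the glucose transporter GLUT1 (Slc2a1) and of genes such as Vegfa, so that the mRNA of their targets, rather than that of Hif1a itself, is the usual readout of the pathway.

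RNA sequencing was done on 3 groups of 3 libraries of H9c2(2-1), a single wild-type cell line labelled as myoblasts that was derived from the heart of embryonic BD1X rats. ESW cells received energized structured water and CW cells control water. Both waters were used at a dilution of 0.01 over 72 h, and fresh dilutions were given every 24 h. Control cells had no treatment and stayed in normal growth medium. All 3 groups grew in DMEM with serum and antibiotics, and the labels name no low-oxygen step for any of them.

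The libraries held between 26748673 and 48574618 estimated reads, and a library had 13913 to 15002 genes with 10 reads or more. The myoblast genes Ncam1 and Cdh15 had at least 449 and 29.8 CPM (counts per 1000000, scaled between libraries) in every library. Myod1 had 7.59 to 11.2, Des 3.88 to 6.65, Myog 2.00 to 3.58 and Chrna1 0.28 to 0.92 CPM, whereas Myf5 and Pax7 stayed under 0.4 CPM. Some markers of fibroblasts and smooth muscle were far higher, with 30220 to 39190 CPM for Col1a1 and 7521 to 9054 CPM for Acta2. Pdgfra, of the same list, had at most 0.569 CPM. The epithelial marker Krt8 had 49.2 to 64.6 CPM, and the other 4 were under 1 CPM in every library. Of 8 cardiomyocyte markers 6 were under 1 CPM in every library. The exceptions were Tnnt2, with up to 62.3 CPM, and Tnni3, with up to 1.22 CPM. All 6 blood cell markers and 5 of 6 endothelial markers were under 1 CPM in every library. On the first principal component of log2 CPM, the ESW libraries lay at -8.79, -18.9 and -28.7 and the CW libraries at 15.4 to 16.5. Control replicate 1 lay at -10.9, among the ESW libraries, whereas Control replicates 2 and 3 lay at 7.08 and 12.3. Counts and calls that change without Control replicate 1 are given with the results.

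The cells expressed nearly the whole glycolytic chain, but only 1 HIF alpha subunit. Together the 35 genes made up 9695 to 10304 TPM (transcripts per 1000000, a level per transcript length that can be set beside that of another gene), most of it from the 15 enzymes. Gapdh, the dehydrogenase often used as a reference gene, was the highest with 4267, 3984 and 4168 TPM in ESW replicates 1 to 3, 3852, 3906 and 3975 TPM in CW, and 3967, 3932 and 3867 TPM in Control. Its lowest ESW library lay above the highest of the other groups by a small margin on this scale. On the CPM scale that was tested the groups overlapped, with a log2 fold change of 0.05 for ESW against Control (95% interval -0.03 to 0.13, edgeR adjusted p = 0.486).

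Aldolase A (Aldoa), enolase 1 (Eno1), pyruvate kinase (Pkm) and lactate dehydrogenase A (Ldha) followed with means over all libraries of 1232, 932, 830 and 749 TPM. Pgam1, Tpi1 and Pgk1 lay between 462 and 506 TPM. The enzymes that commit glucose to the pathway were much lower. Hexokinase 1 (Hk1) averaged 29.1 TPM and hexokinase 2 (Hk2) 10.7 TPM. Of the phosphofructokinases the muscle form Pfkm averaged 44.7, the liver form Pfkl 24.8 and the platelet form Pfkp 9.15 TPM. Phosphoglucose isomerase (Gpi), which stands between these 2 steps, averaged 137 TPM.

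Each isozyme family had a leading member. Aldoc, the brain form of aldolase, had 4, 4 and 1 reads in ESW, 3, 10 and 3 in CW, and 4, 6 and 6 in Control, an average of 0.131 TPM, and the muscle enolase Eno3 averaged 22.7 TPM. The heart-type lactate dehydrogenase Ldhb averaged 105 TPM. For lactate export, the monocarboxylate transporter gene Slc16a1 averaged 32.5 TPM, whereas Slc16a3, the transporter typical of glycolytic muscle, had 72 reads over all 9 libraries. The glucose transporter gene Slc2a1 averaged 20.8 TPM. Pdk1, the kinase that switches off pyruvate dehydrogenase, averaged 22.3 TPM, and Pfkfb3 and Pfkfb4, which make the activator of phosphofructokinase, averaged 4.69 and 2.91 TPM.

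Hif1a, the widely expressed alpha subunit, had 87.4, 89.4 and 86.5 TPM in ESW, 86.97, 78.5 and 79.4 TPM in CW, and 88.7, 83.6 and 80.5 TPM in Control. The 3 groups overlapped. Epas1, which encodes the other main alpha subunit, had 0, 1 and 1 reads in ESW, 3, 1 and 1 in CW, and 2, 0 and 3 in Control, 12 in all. The same contrast was seen between the prolyl hydroxylase genes Egln1 and Egln3. Egln2, a prolyl hydroxylase gene outside this set, averaged 53.4 CPM over all libraries. Egln1, the main oxygen sensor, averaged 27.1 TPM, and Egln3, itself a HIF target in many cells, had 5 reads in all: 1, 2 and 1 in ESW, 1, 0 and 0 in CW, and 0 in each Control library. A count of 0 allows up to 3 reads, which is 0.0618 to 0.112 CPM in these libraries.

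Of the other HIF targets Vegfa, the growth factor of blood vessels, was the highest with a mean of 90.03 TPM. Bhlhe40, a transcriptional repressor of the circadian and hypoxic responses, averaged 57.9 TPM and Mxi1, a partner of MAX that opposes MYC, 32.7 TPM. Kdm3a, a histone demethylase, averaged 13.6, the carbonic anhydrase gene Car9 9.04, the vasodilator peptide gene Adm 6.65 and Ankrd37 3.41 TPM. Ndrg1, strongly induced by hypoxia in many cell types, had 2, 4 and 9 reads in ESW, 6, 2 and 8 in CW, and 4, 5 and 6 in Control. Epas1, Egln3, Aldoc and Ndrg1 are the 4 genes that were too low to be tested. Among the tested genes Pgam1 varied least over the 9 libraries, with a coefficient of variation of 1.78% in CPM, and Pfkfb4, Ankrd37 and Slc16a3 varied most, with 14.7%, 22.8% and 64.1%.

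**Figure D1:**
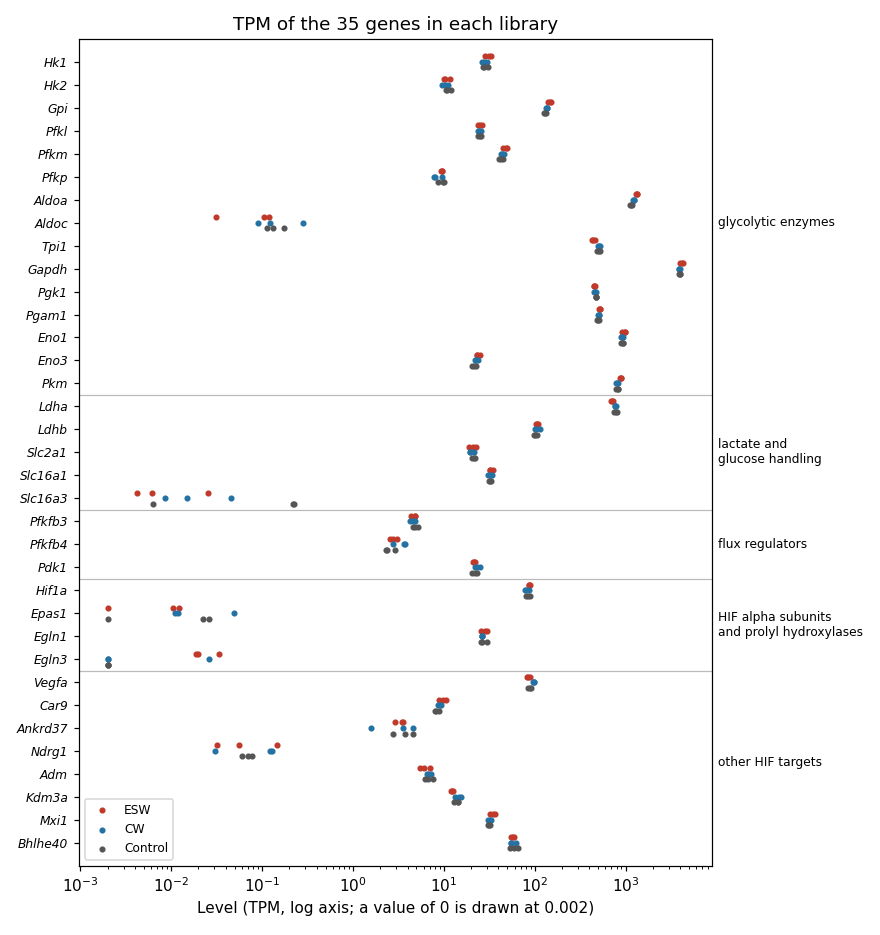
Level of each of the 35 genes in TPM on a log axis, 1 point per library, with ESW, CW and Control on separate lines for each gene. Gapdh lies between 3852 and 4267 TPM in all libraries, and Aldoc, Slc16a3, Epas1, Egln3 and Ndrg1 lie under 0.3 TPM.

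ESW was compared with Control to ask which transcripts differ after 72 h of treated water. In the glycolytic chain the difference was mixed in direction and small. Aldoa, Gpi, Pfkm and Pkm were higher in ESW, whereas Tpi1, the isomerase that follows aldolase, was lower, and so was Ldha. Outside glycolysis Kdm3a was lower. These are 7 of the 31 tested genes (22.6%), against 8.04% of all 14706 tested genes, with 4 higher (4.76% of all genes) and 3 lower (3.28%). Among the 9001 genes that averaged 10 CPM or more 12.1% were called, and among the 26 genes of this set at that level 7. The part of abundance in the share of the set was not tested. All 3 ESW libraries lay above all 3 Control libraries for 8 of the 31 genes (13.3% of all genes) and below them for 4 (12.4%). The median log2 fold change was 0.04 over the 31 genes and -0.01 over all tested genes.

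Aldoa, which cleaves fructose bisphosphate, had 1054, 1009 and 1020 CPM in ESW and 874, 903 and 869 CPM in Control. All ESW libraries lay above all Control libraries. The log2 fold change was 0.22 (SE 0.03), a 1.17-fold difference with a 95% interval of 1.11 to 1.23 (edgeR adjusted p = 0.000794). The call held under each of the 17 other settings tried, with log2 fold changes of 0.19 to 0.24.

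Gpi, which turns glucose 6-phosphate into fructose 6-phosphate, had 215, 223 and 225 CPM in ESW and 196, 201 and 194 CPM in Control. The groups did not overlap, and the log2 fold change was 0.17 (SE 0.04, edgeR adjusted p = 0.00998). Without ESW replicate 3 it was 0.15 (edgeR adjusted p = 0.0674). Pfkm, the next enzyme, had 86.2, 92.9 and 92.7 CPM in ESW and 85.4, 77.4 and 82.1 CPM in Control. Its ESW libraries lay above those of Control by under 1 CPM at the nearest, and its log2 fold change of 0.15 (SE 0.05) was just past the threshold (edgeR adjusted p = 0.0481). It was called without Control replicate 1 or ESW replicate 1, and lost the call without any of the other 7 libraries, with adjusted p between 0.0520 and 0.220.

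Pkm, which makes pyruvate, had 1206, 1149 and 1174 CPM in ESW and 1068, 1086 and 1051 CPM in Control. All ESW libraries were above all Control libraries, and the log2 fold change was 0.14 (SE 0.03, edgeR adjusted p = 0.0185). The adjusted p was 0.0751 without Control replicate 3, 0.0620 without ESW replicate 1, 0.0773 without ESW replicate 3 and 0.0563 with offsets for transcript length. Of its 14 transcripts the same one held 78.0% to 80.1% of the gene's reads in every library, so that the makeup by transcript was alike in the 3 groups.

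Tpi1 was the glycolytic enzyme that was lower. It had 366, 341 and 349 CPM in ESW and 390, 412 and 435 CPM in Control, with no overlap. Its log2 fold change was -0.23 (SE 0.04), a level of 0.854 times that of Control (edgeR adjusted p = 0.00345), and leaving out any 1 library did not end the call. A pair of genes named as copies of Tpi1 held reads equal to 2.64% of those of Tpi1, and the call held when they were added to it.

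Ldha had 599, 561 and 546 CPM in ESW and 590, 638 and 649 CPM in Control. ESW replicate 1 lay above Control replicate 1, so that the groups overlapped. The log2 fold change of -0.14 (SE 0.04) had the highest adjusted p of the 7 calls (edgeR adjusted p = 0.0487). It was called without Control replicate 1 or ESW replicate 1. It lost the call without any of the other 7 libraries, with adjusted p between 0.0562 and 0.217, and under DESeq2 size factors (adjusted p = 0.0525). Ldhb, whose product favours the reverse reaction, had a log2 fold change of 0.07 and was not called (edgeR adjusted p = 0.460).

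Kdm3a had 33.6, 34.0 and 34.4 CPM in ESW and 36.2, 40.1 and 41.4 CPM in Control. The ESW libraries were close together and all below Control. The log2 fold change was -0.21 (SE 0.06, edgeR adjusted p = 0.0266). The adjusted p was 0.0656 without ESW replicate 1, 0.0700 without ESW replicate 2 and 0.0808 without ESW replicate 3, and it was 0.103 without Control replicate 2 and 0.144 without Control replicate 3. With offsets for transcript length it was 0.0780. Reads of Kdm3a were divided among 3 transcripts in shares that varied within a group: 1 of them held 28.6% in ESW replicate 2 and 68.5% in ESW replicate 1.

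The same comparison on log2(TPM + 1) with limma called 1 of the 31 genes, Aldoa (adjusted p = 0.0414). With offsets for the average transcript length edgeR called 3 of them, Aldoa, Gpi and Tpi1. The directions of all 7 genes were the same on both scales. By role, 4 of the 14 tested glycolytic enzymes were higher (4.76% of all tested genes) and 1 was lower (3.28%). Of the 5 genes of lactate and glucose handling 1 was lower. Of the 3 flux regulators 0 were called (0 at an unadjusted p under 0.05, and 0 by DESeq2 or limma), and so for the 2 tested genes of oxygen sensing.

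**Figure D2:**
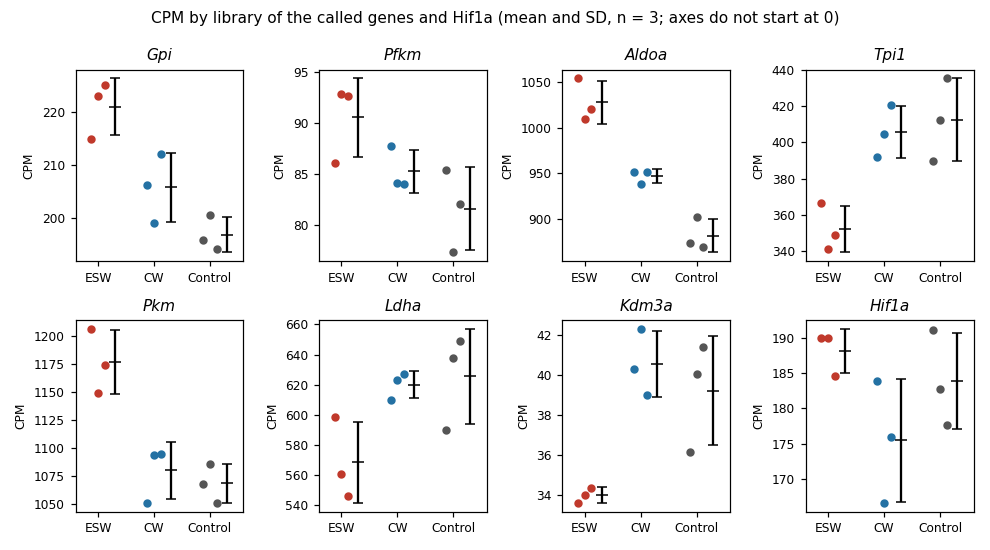
CPM by library of the 7 genes called in ESW against Control and of Hif1a, with ESW, CW and Control from left to right and the mean and SD of 3 libraries beside the points. ESW lies above Control for Gpi, Pfkm, Aldoa and Pkm and below it for Tpi1 and Kdm3a, and the groups overlap for Ldha and Hif1a.

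The other 24 tested genes were not called in ESW against Control. Among them Pgam1, Eno1, Eno3 and Mxi1 had all 3 ESW libraries above Control, with log2 fold changes of 0.04, 0.08, 0.11 and 0.13. Pgk1 had all 3 below, at -0.09, and so had Slc16a3, which has few reads, at -1.81. Eno1 was called by DESeq2 (adjusted p = 0.0176). Hif1a had 190.0, 190.0 and 184.6 CPM in ESW and 191.2, 182.8 and 177.7 CPM in Control. Its log2 fold change was 0.03, with a 95% interval of -0.05 to 0.12 (edgeR adjusted p = 0.691).

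Among the classical readouts of HIF activity, Slc2a1, Vegfa and Car9 were not called either. Slc2a1 had 27.8, 29.7 and 29.1 CPM in ESW and 28.6, 29.8 and 28.1 CPM in Control, with fully overlapping groups. Its log2 fold change was 0.00, and the 95% interval covers folds of 0.926 to 1.08. Vegfa had 155.6, 142.1 and 147.8 CPM in ESW and 148.9, 157.0 and 160.2 CPM in Control, with an interval of 0.900 to 1.014 in fold. Car9 was at 10.5 ± 0.942 CPM in ESW and 8.91 ± 0.670 CPM in Control (SD, n = 3 each) and had the highest log2 fold change of the set, 0.23, which was not called (edgeR adjusted p = 0.120). Adm, Ankrd37 and Bhlhe40 had log2 fold changes of -0.12, 0.04 and -0.05. Of the 7 tested genes among the other HIF targets 0 were higher (4.76% of all tested genes) and 1, Kdm3a, was lower (3.28%). At an unadjusted p under 0.05 there were 2 higher and 1 lower, against 1704 and 1653 of all 14706 tested genes. With limma on log2 TPM 0 of the 7 were called.

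Slc16a3 had 5, 4 and 1 reads in ESW and 6, 16 and 18 in Control. Its log2 fold change of -1.81 had an SE of 0.61 (edgeR adjusted p = 0.0761), and without Control replicate 1 it was -2.13 (adjusted p = 0.0348). With offsets for transcript length it was -4.22 (adjusted p = 0.0573). At such counts a few reads decide the value.

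No regulator of glycolytic flux was called in ESW against Control. Pdk1 had 30.6, 29.9 and 29.3 CPM in ESW, 31.6, 30.8 and 31.2 CPM in CW, and 31.0, 28.3 and 28.5 CPM in Control. ESW and Control overlapped, at a log2 fold change of 0.03. Pfkfb4 had 4.14, 3.56 and 4.09 CPM in ESW, 4.15, 5.17 and 5.14 CPM in CW, and 3.47, 3.74 and 4.18 CPM in Control. CW replicates 2 and 3 were the highest, and CW replicate 1 lay below Control replicate 3. The log2 fold change was 0.04 for ESW against Control (95% interval -0.24 to 0.33, edgeR adjusted p = 0.897). It was -0.31 for ESW against CW (edgeR adjusted p = 0.172) and 0.35 for CW against Control (95% interval 0.07 to 0.63, edgeR adjusted p = 0.386).

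**Figure D3:**
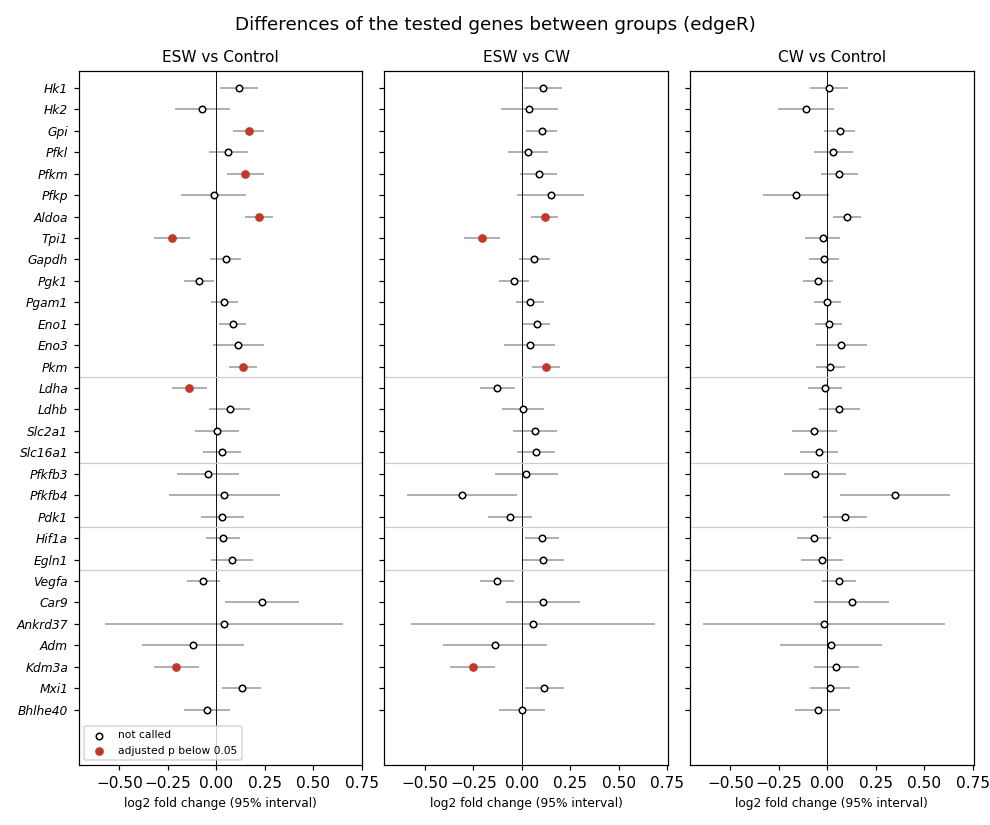
Log2 fold change with its 95% interval for 30 tested genes in each comparison, with filled points for genes called by edgeR; Slc16a3, which has few reads, is left out. Called genes appear on both sides of 0 in the panels of ESW, and the panel of CW against Control has 0 called genes.

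ESW was also compared with CW, which sets the structured water against control water. This comparison shares the ESW libraries with the previous one, so that the directions are not independent. Aldoa and Pkm were again higher and Tpi1 and Kdm3a again lower, and these 4 were the calls among the 31 tested genes (12.9%). Of all tested genes 8.14% were called, 4.15% higher and 3.99% lower. For 8 genes of the set every ESW library lay above every CW library (14.9% of all genes), and for 7 below (13.4%). The median log2 fold change was 0.04 over the 31 genes and 0.00 over all tested genes. In CW Aldoa had 951, 939 and 951 CPM, all below ESW, at a log2 fold change of 0.12 for ESW against CW (SE 0.03, edgeR adjusted p = 0.0396). Pkm had 1051, 1094 and 1095 CPM in CW, also below ESW, and its value was likewise 0.12 (SE 0.03, edgeR adjusted p = 0.0350).

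Both of these calls were lost without any 1 of the 6 ESW and CW libraries. The adjusted p then lay between 0.0654 and 0.129 for Aldoa and between 0.0534 and 0.122 for Pkm. Tpi1 and Kdm3a differed more. Tpi1 had 392.2, 404.5 and 420.5 CPM in CW, above every ESW library, with a log2 fold change of -0.20 for ESW against CW (SE 0.04, edgeR adjusted p = 0.00833), and its call was lost without CW replicate 3 (adjusted p = 0.0585). Kdm3a had 40.3, 42.3 and 39.0 CPM in CW, likewise above every ESW library. Its log2 fold change was -0.25 (SE 0.06, edgeR adjusted p = 0.00998), and it was lost without CW replicate 2 (adjusted p = 0.0713).

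Ldha and Vegfa were near the threshold in this comparison, and Hif1a was further from it. Ldha had 610, 623 and 627 CPM in CW, all above ESW, and its log2 fold change of -0.13 gave an edgeR adjusted p = 0.0719. It was called by DESeq2 (adjusted p = 0.0323), with no filter on low counts (0.0320), with only ESW and CW fitted (0.0317), without Control replicate 1 (0.0287) and without ESW replicate 1 (0.0291). Vegfa had 162.1, 161.8 and 162.6 CPM in CW, also above every ESW library, and its value of -0.13 gave an edgeR adjusted p = 0.0644. It was called by DESeq2 (adjusted p = 0.0394), with only ESW and CW fitted (0.0348), without Control replicate 1 (0.0325), without ESW replicate 1 (0.0310) and with offsets for transcript length (0.0301). Hif1a had 183.9, 166.5 and 175.9 CPM in CW. All ESW libraries lay above these, at a log2 fold change of 0.10 (95% interval 0.01 to 0.19, edgeR adjusted p = 0.140). Gpi and Pfkm, called against Control, had values of 0.10 and 0.09 here and were not called (edgeR adjusted p = 0.0972 and 0.257).

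CW was compared with Control to set the control water against no treatment. None of the 31 genes was called by edgeR, where 0.177% of all tested genes were, 0.0272% higher and 0.15% lower. All CW libraries lay above all Control libraries for 2 of the 31 genes (7.13% of all genes) and below them for 0 (7.56%). Of all 14706 tested genes 680 were higher and 772 lower at an unadjusted p under 0.05. Of the 31 genes there were 2, Aldoa and Pfkfb4, both higher in CW. DESeq2 called 1, Aldoa (adjusted p = 0.0438), and limma on log2 TPM called 0. Aldoa was the gene of the set whose libraries did not overlap in any of the 3 comparisons. It had 1028 ± 23.6 CPM in ESW, 947 ± 7.24 in CW and 882 ± 18.2 in Control (SD, n = 3 each). Its log2 fold change for CW against Control was 0.10, with a 95% interval of 0.03 to 0.17 (edgeR adjusted p = 0.296). Those of Tpi1, Pkm, Ldha and Kdm3a were -0.02, 0.02, -0.01 and 0.05. A single test over the 3 groups called Aldoa, Tpi1, Kdm3a, Gpi and Pkm, 5 of the 31 genes, against 9.58% of all tested genes. It called 7 without Control replicate 1, 3 without ESW replicate 2 and 2 without ESW replicate 3.

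The balance within isozyme pairs, as the log2 ratio of TPM in each library, also differed a little between groups. The ratio of Ldhb to Ldha was -2.79 to -2.69 in ESW, -2.93 to -2.76 in CW and -2.99 to -2.88 in Control. The ESW libraries lay above the Control libraries and overlapped with CW. The ratio of Pfkm to Pfkl was 0.89 to 0.98 in ESW, 0.79 to 0.91 in CW and 0.64 to 0.84 in Control, again apart from Control only. The ratio of Hk2 to Hk1 was -1.62 to -1.49 in ESW, -1.47 to -1.43 in CW and -1.49 to -1.16 in Control. All ESW libraries lay below those of both other groups, by a narrow margin against Control (highest ESW library -1.493, lowest Control library -1.488). For Pfkp to Pfkl and Eno3 to Eno1 the ESW range overlapped with those of CW and Control. These ratios were not tested.

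**Figure D4:**
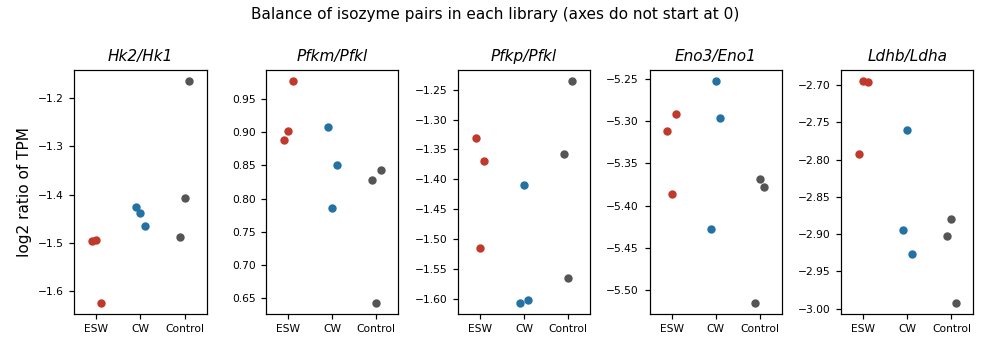
Log2 ratio of TPM for 5 isozyme pairs, 1 point per library, with ESW, CW and Control from left to right. The ESW points of Ldhb/Ldha lie at -2.79 to -2.69, above all Control points, and those of Pfkp/Pfkl overlap with both other groups.

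Genes that feed or leave the glycolytic chain were read from lists chosen by function. Of all tested genes edgeR called 4.76% higher and 3.28% lower in ESW against Control. Against CW these shares were 4.15% and 3.99%. Among 14 tested genes of other glycolysis and glucose uptake, 1 was higher in ESW than in Control and 0 lower. It was the neuronal enolase Eno2, with 143 ± 1.77 CPM in ESW and 121 ± 4.43 CPM in Control (log2 fold change 0.24, edgeR adjusted p = 0.00116). Against CW Eno2 was at 0.20 and the regulator Pfkfb2 was lower, at -0.21 (edgeR adjusted p = 0.0497). Of 11 tested genes of pyruvate entry into mitochondria 1 was lower and 0 higher against Control. It was Mpc2, a subunit of the pyruvate carrier, with 53.1 ± 3.04 CPM in ESW and 63.5 ± 4.43 CPM in Control (log2 fold change -0.26, edgeR adjusted p = 0.00695), and it was also lower against CW, at -0.24. Of 9 tested genes of gluconeogenesis and glycogen 2 were higher and 0 lower against Control. These were G6pc3, a ubiquitous glucose 6-phosphatase, at 0.26 and Pc, pyruvate carboxylase, at 0.24. Against CW the 1 called gene was G6pc3, at 0.24.

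A longer list held 26 further HIF targets, 22 of them tested. In ESW against Control 2 were higher (4.76% of all tested genes) and 3 lower (3.28%), with a median log2 fold change of -0.01. Bnip3, a mitophagy receptor and one of the most regular HIF targets, had 41.8, 44.5 and 42.5 CPM in ESW and 49.7, 52.2 and 52.5 CPM in Control. It was lower in every ESW library than in every Control library, at a log2 fold change of -0.26 (SE 0.05, edgeR adjusted p = 0.00213). In CW Bnip3 had 47.4, 48.5 and 47.2 CPM, above every ESW library and below every Control library. It was not called in ESW against CW or in CW against Control. Plod1 and P4ha2, which hydroxylate collagen, were higher by 0.18 and 0.15. The other 2 lower genes were Wsb1 at -0.24 and Higd1a, named after its values were seen, at -0.25. Against CW 1 gene was lower (3.99% of all tested genes), Wsb1 at -0.33, and 0 were higher (4.15%). Of 14 tested HIF partners and genes of HIF degradation 1 was higher against Control, Arnt2 at 0.15, and 1 was higher against CW, Cited2 at 0.20. In CW against Control edgeR called 0 genes of any of these 5 lists, where it called 0.177% of all tested genes. At an unadjusted p under 0.05 1 gene of these lists was higher and 5 were lower. Of all 14706 tested genes 680 were higher and 772 lower at that cut.

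Collagen and smooth muscle genes moved with the same libraries. Of 6 markers of fibroblasts and smooth muscle 3 were called higher in ESW than in Control (4.76% of all tested genes). Against CW 5 were called higher (4.15% of all tested genes), and 0 were called lower in either comparison. Pdgfra went the other way against Control, with means of 0.211 CPM in ESW and 0.368 CPM in Control, and was not called. The summed level of the 6 markers was 34220 to 36860 TPM in ESW, 29240 to 31530 in CW and 29920 to 32150 in Control. Col1a1 alone had 30220 to 39190 CPM in the 9 libraries. The part of these 6 markers in the values of the glycolytic genes was not tested. In RNA from whole cultures the number of cells of a type and the RNA per cell cannot be told apart.

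The start regions of the genes were read from RefSeq (assembly GRCr8) as windows of 250 bases before to 50 bases after each transcription start. Of the 35 genes 33 (all but Pgk1 and Ndrg1) had at least 1 window, 39 windows in all. The core letters bound by HIF, ACGTG or GCGTG, were searched on both strands. At least 1 match stood in 24 of the 39 windows (61.5%), against 13937 of 33469 windows of all genes (41.6%). A match is a stretch of letters and not a measured site. The genes called in ESW did not share it. Ldha had 6 matches, 2 of which overlap in 1 palindrome, and was lower. Gpi and Pfkm had 1 match each and were higher, Aldoa had 1 match in 1 of its 3 windows, and Kdm3a had 1 match in 1 of its 2 windows and was lower. Tpi1 and Pkm had 0 matches. Windows are shown for Ldha, which has the most matches of the called genes, for Aldoa, whose call held under all 17 settings tried, and for Kdm3a, the called gene outside glycolysis. They are written 5′ to 3′ on the strand of the gene, with matches in capitals.
Ldha promoter, GRCr8 chr1:106507842-106508141, plus strand: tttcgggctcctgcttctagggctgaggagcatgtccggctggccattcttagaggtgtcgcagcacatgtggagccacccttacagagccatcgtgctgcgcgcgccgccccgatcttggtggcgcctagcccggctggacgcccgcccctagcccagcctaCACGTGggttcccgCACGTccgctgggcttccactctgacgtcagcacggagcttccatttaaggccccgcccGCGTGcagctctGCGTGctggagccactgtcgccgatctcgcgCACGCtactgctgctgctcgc
Aldoa promoter, GRCr8 chr1:190836728-190837027, minus strand: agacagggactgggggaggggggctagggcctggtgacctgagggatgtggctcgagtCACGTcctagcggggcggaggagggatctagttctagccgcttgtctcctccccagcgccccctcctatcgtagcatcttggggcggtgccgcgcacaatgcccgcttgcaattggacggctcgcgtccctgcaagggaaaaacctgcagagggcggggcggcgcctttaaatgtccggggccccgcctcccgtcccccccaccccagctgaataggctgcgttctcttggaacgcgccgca
Kdm3a promoter, GRCr8 chr4:105233062-105233361, minus strand: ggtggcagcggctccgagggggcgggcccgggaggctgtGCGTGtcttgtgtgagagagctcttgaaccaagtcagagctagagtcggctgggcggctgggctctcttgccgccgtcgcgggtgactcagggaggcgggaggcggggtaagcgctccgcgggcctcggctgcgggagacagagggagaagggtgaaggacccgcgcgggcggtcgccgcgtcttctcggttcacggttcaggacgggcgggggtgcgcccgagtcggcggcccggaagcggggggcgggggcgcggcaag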

How the data were processed

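RNA of 9 libraries was measured, 3 per group. Per the submitters' processing notes the tools were Salmon 1.10.3 and DESeq2. Options, genome build and annotation release are not given in the sources used here. Per the file headers each deposited table gives an estimated count of reads per RefSeq transcript and its TPM, which the authors' Salmon run scaled to the same sum in every library, with the length and effective length in bases. Transcripts of 939 bases had effective lengths of 392 to 830 bases in Control replicate 1.

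Each of the 114122 transcripts found its gene in a RefSeq table of the GRCr8 assembly through its accession and version. Estimated counts and TPM were summed per gene, and counts were rounded. Groups were tested with the quasi-likelihood F-test in edgeR 4.0.16 (R 4.3.3), with TMM scaling and filterByExpr, which kept 14706 genes, on all 9 libraries with 1 mean per group. P-values were adjusted over all tested genes (Benjamini-Hochberg), and a gene was called below 0.05. CPM are scaled by TMM. SEs were derived from the F statistics. Alternatives were DESeq2 1.42.0, its size factors in edgeR, limma 3.58.1 on log2(TPM + 1), no filter, transcript length offsets, a replicate block, only the 2 groups compared, leaving out each library, and, added after seeing the data, adding named copies to their gene. Fits were tested on simulated data.

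The members and lists were chosen with earlier results of these data known. Genes called in any comparison, the highest and lowest of each role group and 7 further genes (Hif1a, Epas1, Gapdh, Ldha, Pkm, Slc2a1 and Vegfa) were to be described by library, and of each further list up to 3 called genes with the smallest p. The results of 1 further list are not reported here, so the lists shown are not all those examined. The labels do not say that libraries came from separate cultures, so the p-values measure only the spread among these libraries, and that spread may be technical.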

Additional observations from a re-analysis of the deposited data

How the results depend on the processing

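Over 17 alternatives and the 31 tested genes, 1500 of 1572 log2 fold changes stayed on their side of the threshold, 59 lost a call and 13 gained one. Only 11 values were called in the main fit, and all 59 lost calls fall on these 11, so most of the 1572 could not lose a call. None of the called values changed sign in any alternative, and 74 values that were not called did. With limma on log2 TPM 86 genes were called for ESW against Control, 1 of them in the set. It called 0 genes both for ESW against CW and for CW against Control, and 0 of the set over the 3 groups. At an unadjusted p under 0.05 edgeR had 13 of the set for ESW against Control, where it had 3357 of all 14706 tested genes. For ESW against CW these counts were 13 and 3514, and for CW against Control 2 and 1452. With transcript length offsets ESW against Control had 440 called genes and 3 of the set, and CW against Control had 2 called genes. Without a filter CW against Control had 273 called genes, with DESeq2 78 with 1 of the set, and with only the 2 groups fitted 16. Leaving out 1 library at a time gave 394 to 1544 genes and 2 to 8 of the set for ESW against Control, 314 to 1486 and 1 to 6 for ESW against CW, 5 to 51 genes for CW against Control, and 2 to 7 of the set over the 3 groups. The lowest counts of the set for ESW against Control were 2 without ESW replicate 3, 3 without Control replicate 3, and 4 without Control replicate 2 or ESW replicate 2. The replicate numbers showed no sign of pairing the libraries. As deviations from their group means, same-numbered libraries had correlations of -0.12 to 0.04 and other pairs -0.04 to 0.09. With 3 libraries a group this check cannot decide whether same-numbered libraries shared a batch. With a replicate block 5 of the set were called for ESW against Control and 2 for ESW against CW. Causes were not tested. With 3 libraries a group, the size of a log2 difference that was called varied between genes. Ldha at -0.14 and Pfkm at 0.15 lay just past the threshold in ESW against Control, and Car9 at 0.23 was not called. Aldoa was called at 0.12 in ESW against CW. Genes with few reads, such as Slc16a3 and Ankrd37, have wide intervals.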
